A study of Mus musculus with 4 samples.

Results

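The genes described here are the enzymes of xenobiotic and glutathione detoxification in the mouse colon epithelium. They were chosen by name alone: every gene on the array whose name in the deposited files begins with Gsta, Gstk, Gstm, Gsto, Gstp, Gstt, Gstz, Mgst, Ugt1, Ugt2, Sult, a numbered Ces, or a Cyp of families 1 to 4, together with Nqo1, Ephx1 and Ephx2. The rule found 120 genes among 27821 named on the array, of which 74 belong to phase 1 and 46 to phase 2. Of these, 81 could be measured, 43 of phase 1 and 38 of phase 2.

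Detoxification is described in phases. Phase 1 enzymes expose or add a reactive group: cytochromes P450 (Cyp) oxidise, carboxylesterases (Ces) hydrolyse esters, epoxide hydrolases (Ephx) open epoxides, and the quinone reductase Nqo1 reduces quinones. Phase 2 enzymes attach a polar molecule that makes the product easier to export: glutathione S-transferases (Gst, Mgst) attach glutathione, UDP-glucuronosyltransferases (Ugt) attach glucuronic acid, and sulfotransferases (Sult) attach sulfate. The gut epithelium meets dietary and bacterial chemicals first and is known to carry many of these enzymes.

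The study compared RNA from 2 populations sorted from the colonic crypts of adult mice with a normal colon. The mice carry a knock-in at Lgr5, which encodes a receptor found on stem cells at the crypt base, from which both GFP and an inducible Cre (CreERT2) are expressed. One population was sorted for GFP and labelled Lgr5-GFP, and the other was sorted for high levels of the surface protein CD24 with an antibody and labelled CD24hi, to obtain a subset of goblet cells. No treatment or strain is named, and the labels do not say whether replicates came from separate animals or how many animals were pooled, so the p-values speak only to variation among these samples, possibly technical. Both RNAs were hybridised together on 4 Agilent arrays, as 2 replicates of a first array (RNA labelled Lgr5-GFP in Cy3) and a dye swap (that RNA in Cy5).

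The sort markers ran against the labels, so the populations are named by label throughout and each direction is that of the labels. A log2 ratio is that of the RNA labelled Lgr5-GFP to the RNA labelled CD24hi, and 1 is a 2-fold difference. Lgr5 had a log2 ratio of -3.41 ± 0.29 (SD, n = 2), and Cd24a, which encodes CD24, had 2.12 ± 0.30. The size of the Lgr5 ratio is uncertain. In the RNA labelled Lgr5-GFP its signal passed background on 2 of 3 arrays, and its ratio ran from -4.78 to -2.69 over the alternative settings. Whether labels or dyes were exchanged in the record was not tested. If they were, each direction printed here would turn around. All 6 measured stem cell and all 4 cycling markers were called lower in the RNA labelled Lgr5-GFP (limma, adjusted p under 0.05), beside 25.7% of all genes. Called higher, beside 22.0% of all genes, were 5 of 8 goblet, 3 of 3 deep crypt secretory and 7 of 12 absorptive colonocyte markers. So were 3 of 3 measured enteroendocrine and 2 of 2 measured tuft markers. Below 0 but not called were 1 goblet marker (Tff3, -0.95) and 2 absorptive colonocyte markers (Slc26a3, -0.49, and Car4, -0.13). Markers of cells outside the epithelium were mostly unmeasured: 1 of 4 T cell markers, 0 of 3 B cell markers, 1 of 5 myeloid markers (Cd14, -0.40) and 1 of 6 stromal and endothelial markers (Col1a2, 0.44). The part of any cell type in the results below was not tested. In RNA from sorted bulk cells, fewer cells of a type and less RNA per cell cannot be told apart. Values of a replicate are given below in the order first array, dye swap. The dye swap of replicate 1 stood apart: 75.3% of its gene spots were marked by the scanner software as uneven or outliers and were left out, 123 of 175 spots of these enzymes among them. Over all gene spots its median signal was 4377 (RNA labelled Lgr5-GFP) and 1358 (RNA labelled CD24hi), against 94.16 to 197.4 on the other arrays. The values kept on this array come from that much brighter scan, and the cause was not tested. Only 30 of the 81 measured enzymes kept a value there, 9 of 43 in phase 1 and 21 of 38 in phase 2. Replicate 1 otherwise rested on its first array, in 1 dye orientation (first array only), which was more often the case in phase 1. Across the measured enzymes the 2 replicates correlated at r = 0.95 (0.91 over all genes), which is across genes and not over independent samples.

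Phase 2 enzymes were mostly lower in the RNA labelled Lgr5-GFP where they differed, and phase 1 enzymes divided into a few large decreases and many small increases. At an adjusted p under 0.05 (limma, adjusted over all genes tested), 36 of the 81 measured enzymes were called, which is 44.4%, beside 47.8% of all 14630 genes tested. The populations differ so widely that a share near the background is not a result about the enzymes. In phase 2, 15 were called lower and 3 higher of 38, which is 39.5% lower beside 25.7% of all genes and 7.89% higher beside 22.0%. In phase 1, 5 were called lower and 13 higher of 43, which is 11.6% lower and 30.2% higher. That balance changed with the processing: it was 9 lower and 4 higher with arrays centred on their medians in place of loess, and 4 lower and 0 higher with marked spots kept. Were the labels exchanged, phase 2 would read as 15 higher and 3 lower, and phase 1 as 5 higher and 13 lower. Differences of at least 2-fold were called lower for 10 phase 2 and 4 phase 1 enzymes (26.3% and 9.30%, beside 8.33% of all genes), and higher for 2 and 0 (5.26% and 0.00%, beside 8.20%). The Ugt2b genes were 5 of those 10. The medians lay close together all the same, at 0.03 for phase 1, -0.11 for phase 2 and -0.06 for all genes. No test was made of the difference between phases, since genes of a family are not independent.

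**Figure D1:**
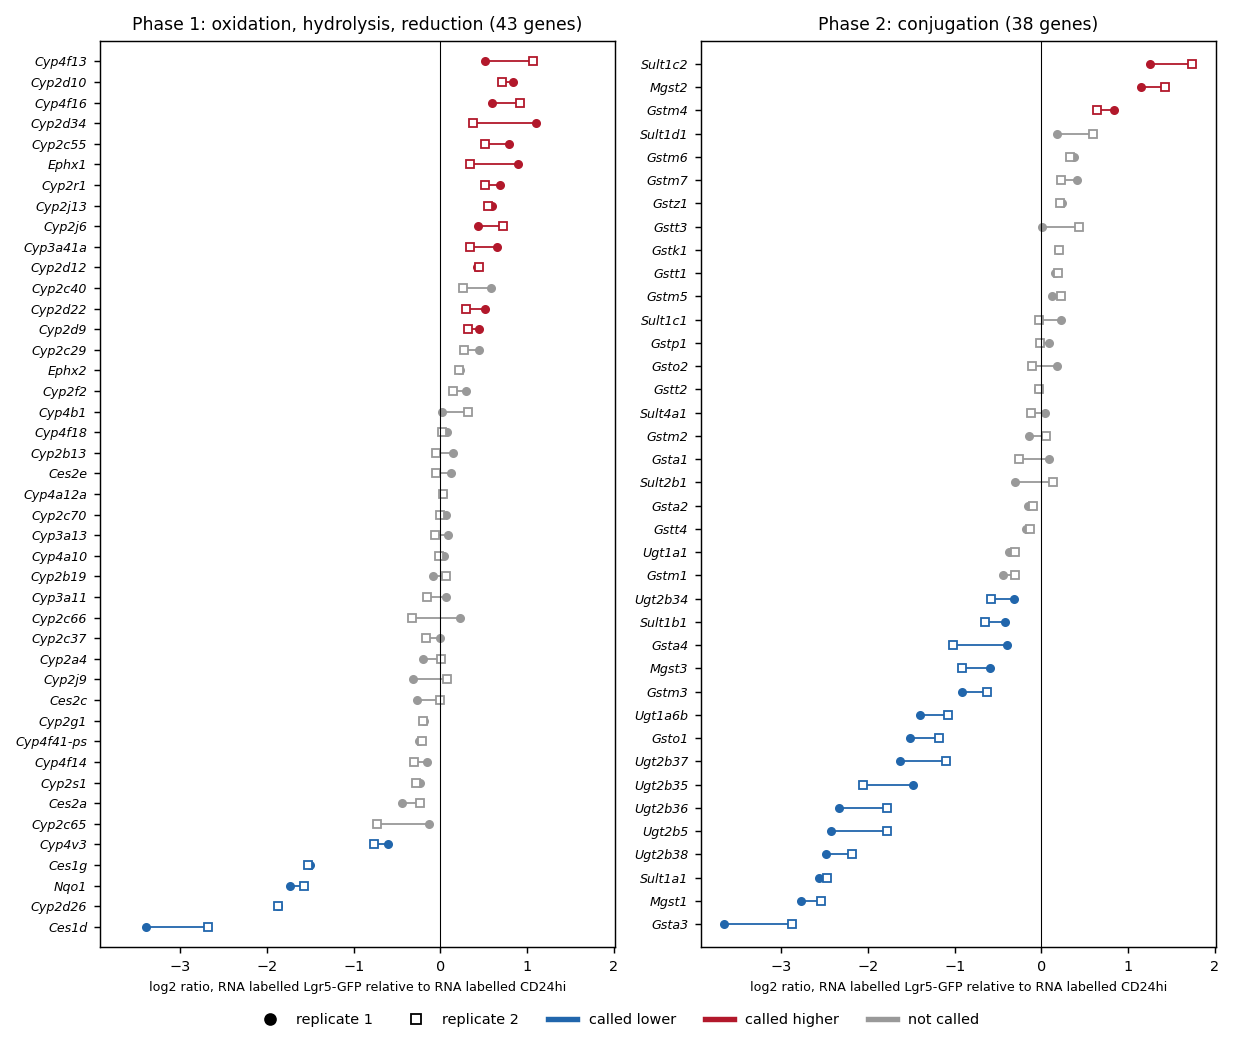
Log2 ratio (horizontal axis, RNA labelled Lgr5-GFP to RNA labelled CD24hi) of each measured enzyme, with phase 1 on the left (43 genes) and phase 2 on the right (38 genes). Filled circles are replicate 1 and open squares replicate 2, joined by a line; blue marks genes called lower, red called higher and grey not called. The lowest values are Gsta3 at -3.27 and Ces1d at -3.04 and the highest is Sult1c2 at 1.49 (means of both replicates).

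The Ugt2b glucuronosyltransferases, which conjugate steroids, bile acids and many drugs, were all called in 1 direction. The 6 measured Ugt2b genes were lower in the RNA labelled Lgr5-GFP, with a median log2 ratio of -1.92 and a range from -2.34 to -0.45. Ugt2b1, Ugt2a1 and Ugt2a3 were not well above background on any array. Ugt2b38 (probe on chromosome 5, 87850627 to 87850686, mm9) had -2.49 in replicate 1 (first array only) and -2.05 and -2.33 in replicate 2. Every array with a value put it about equally low, and the mean of -2.34 ± 0.21 (SD, n = 2) was 5.06-fold lower, at an adjusted p of 4.69e-04.

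Ugt2b5 (chromosome 5, 87554199 to 87554258) had -2.43 in replicate 1 (first array only) and -1.49 and -2.07 in replicate 2, a mean of -2.11 ± 0.46 (adjusted p = 8.10e-04). Ugt2b36 had -2.33 on that array of replicate 1 and -1.65 and -1.92 in replicate 2, a mean of -2.06 ± 0.39 (adjusted p = 7.10e-04). In both genes the first array of replicate 1 was lowest and that of replicate 2 highest. Ugt2b35 (chromosome 5, 87441721 to 87441780) was measured on all 4 arrays, at -2.43 and -0.54 in replicate 1 and -1.89 and -2.24 in replicate 2. The array that stood apart gave the mildest value, and the mean was -1.77 ± 0.41 (adjusted p = 0.00107). Ugt2b37 (chromosome 5, 87669707 to 87669766) had -1.63 in replicate 1 (first array only) and -1.01 and -1.20 in replicate 2, a mean of -1.37 ± 0.37 (adjusted p = 0.00193). On 1 of those 3 arrays its signal in the RNA labelled Lgr5-GFP did not pass background, and its ratio ran from -2.53 to -1.06 over the alternatives. Ugt2b34 (chromosome 5, 87319553 to 87319612) lay nearest to 0, at -0.45 ± 0.18 (adjusted p = 0.0367), and its call was lost when the scanner software's processed signals were used, with marked spots kept, with a value required on all 4 arrays and without the first array of either replicate.

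Since paralogs can take up each other's RNA on an array, the probes were compared with each other. Among the 15 pairs of Ugt2b probes the longest run of bases in common was 11 of 60. The probes were not set against the RNA of the other genes. Whether a probe takes up RNA of another Ugt2b gene was therefore not tested, and the Ugt2b ratios may not be separate. Probes of Ugt2b38 and Ugt2b36 show how far they differ; the second spans 14459 bases of the genome and so crosses a splice junction. In these probes no letters are in capitals.
Ugt2b38 (mm9, chr5:87850627-87850686, minus strand): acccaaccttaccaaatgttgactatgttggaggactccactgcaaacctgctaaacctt
Ugt2b36 (mm9, chr5:87495455-87509913, minus strand): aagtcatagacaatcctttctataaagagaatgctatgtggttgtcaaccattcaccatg

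The Ugt2b genes also lie side by side on chromosome 5 and moved together, so promoters of the measured ones are shown, except that of Ugt2b34. They are from RefSeq (GRCm38.p6), from 90 bases before the transcription start to 10 bases from it. Capitals mark AGGTCA, a half-site that many nuclear receptors read, searched on both strands; the motif was chosen after the results were known.
Ugt2b5 (GRCm38.p6, chr5:87140331-87140430, minus strand): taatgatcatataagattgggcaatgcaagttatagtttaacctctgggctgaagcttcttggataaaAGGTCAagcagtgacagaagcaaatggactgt
Ugt2b36 (GRCm38.p6, chr5:87092546-87092645, minus strand): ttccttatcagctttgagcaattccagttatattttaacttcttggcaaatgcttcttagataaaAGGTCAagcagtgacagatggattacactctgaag
Ugt2b37 (GRCm38.p6, chr5:87254779-87254878, minus strand): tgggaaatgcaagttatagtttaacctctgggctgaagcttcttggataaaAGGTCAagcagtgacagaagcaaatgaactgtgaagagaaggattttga
Ugt2b38 (GRCm38.p6, chr5:87424194-87424293, minus strand): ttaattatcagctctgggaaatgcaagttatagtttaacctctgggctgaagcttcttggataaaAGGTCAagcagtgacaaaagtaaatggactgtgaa
Ugt2b35 (GRCm38.p6, chr5:87000770-87000869, plus strand): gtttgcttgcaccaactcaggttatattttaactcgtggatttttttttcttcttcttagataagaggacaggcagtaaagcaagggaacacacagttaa

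The promoters of Ugt2b5, Ugt2b36, Ugt2b37 and Ugt2b38 share the 22 bases gataaaaggtcaagcagtgaca, which hold the half-site, and those of Ugt2b5, Ugt2b37 and Ugt2b38 share 62 bases. In Ugt2b35 these letters are not in the stretch shown, and its match lies at position -215. Over whole 300-base promoters AGGTCA was in 5 of 6 measured Ugt2b genes, in 19.3% of the promoters of measured enzymes and in 16.3% of all 32851 promoters. The Ugt2b gene without a match was Ugt2b34, whose promoter is not shown. A match describes the letters only, and promoters that share so much sequence are not independent cases.

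Glutathione transferases were all measurable, yet most were not called. Of 20 cytosolic and mitochondrial Gst genes, 4 were called lower and 1 higher, with a median log2 ratio of 0.00. That is 20% lower and 5.0% higher, beside 25.7% and 22.0% of all genes, so the lower share is near the background. Some single genes differed widely. Gsta3, an alpha class transferase (probe on chromosome 1, 21255189 to 21255248, mm9), had -3.66 in replicate 1 (first array only) and -2.93 and -2.83 in replicate 2. It was low on each of the 3 arrays and lowest in replicate 1, and its mean of -3.27 ± 0.56 (adjusted p = 5.04e-04), 9.65-fold lower, was the largest difference among the enzymes. Its other kept probe gave -2.40, the widest disagreement among 15 enzymes with 2 kept probes, which leaves its size less certain than its direction.

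Gsto1, an omega class enzyme that reduces arsenic compounds and mixed disulfides (chromosome 19, 47939128 to 47939187), had -1.21 and -1.82 in replicate 1 and -1.04 and -1.32 in replicate 2. All 4 values were below 0, and the mean was -1.35 ± 0.24 (adjusted p = 0.00129). Gstm3 (-0.78 ± 0.20) and Gsta4 (-0.71 ± 0.44), which removes the lipid peroxidation product 4-hydroxynonenal, were called lower by smaller amounts. Gsta4 was 0.20 on the dye swap of replicate 1 and between -1.10 and -0.95 on the others, and was the only called enzyme without 1 direction on every array with a value. Gstm4 was called higher, at 0.74 ± 0.15. Both Gsta4 and Gstm3 lost their call without the first array of replicate 1, and Gstm4 lost it with marked spots kept.

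Gstp1, the pi class enzyme that is abundant in many epithelia, had 0.04 and 0.15 in replicate 1 and 0.01 and -0.04 in replicate 2. Its values lay on both sides of 0, with a mean of 0.04 and a 95% interval from -0.27 to 0.34, and its sign turned under several alternatives. Gstm1 had -0.13 and -0.75 in replicate 1 and -0.13 and -0.48 in replicate 2, a mean of -0.37 with an interval from -0.68 to -0.06 and an adjusted p of 0.0531. Its other kept probe gave 0.23, so the probes disagree in sign and the gene was not called. The 4 theta class genes lay between -0.15 and 0.22. Gsta1 (-0.09) and Gsta2 (-0.13) were not called either, and their probes are shown because they share 20 bases, in capitals, the longest run between any 2 of the enzymes over 3240 pairs; the genes' RNA may not be separable here.
Gsta1 (mm9, chr9:78083844-78087325, plus strand): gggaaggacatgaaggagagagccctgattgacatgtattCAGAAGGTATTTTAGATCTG
Gsta2 (mm9, chr9:78181644-78181703, minus strand): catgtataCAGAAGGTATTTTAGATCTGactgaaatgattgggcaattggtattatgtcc

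The microsomal transferases (Mgst), membrane enzymes that act on glutathione, lipid peroxides and leukotrienes, went in opposite directions. Mgst1 had -2.88 and -2.67 in replicate 1 and -2.75 and -2.33 in replicate 2. The 4 arrays were close, the mean was -2.66 ± 0.17 (6.3-fold lower, adjusted p = 4.43e-04), and a further kept probe gave -3.0. Mgst3 was lower by less, at -0.75 ± 0.23 (adjusted p = 0.00762), a call lost without the first array of replicate 1. Mgst2, which can make leukotriene C4, had 1.38 and 0.93 in replicate 1 and 1.53 and 1.32 in replicate 2. Each array put it higher in the RNA labelled Lgr5-GFP, with a mean of 1.29 ± 0.19 (2.45-fold, adjusted p = 0.00129). The probes behind this opposite pair, with no letters in capitals, are as follows.
Mgst1 (mm9, chr6:138104741-138104800, plus strand): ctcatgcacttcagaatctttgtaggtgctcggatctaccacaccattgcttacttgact
Mgst2 (mm9, chr3:51486449-51486508, plus strand): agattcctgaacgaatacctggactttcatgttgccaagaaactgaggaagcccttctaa

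Sulfotransferases were divided as well. Sult1a1, which sulfates phenols (chromosome 7, 133816605 to 133816664), had -3.0 and -2.14 in replicate 1 and -2.32 and -2.62 in replicate 2. It was low on all 4 arrays, at a mean of -2.52 ± 0.07 (5.74-fold lower, adjusted p = 4.43e-04). Sult1c2 (chromosome 17, 53969205 to 53969264) had 1.77 and 0.72 in replicate 1 and 1.79 and 1.70 in replicate 2. The dye swap of replicate 1 was the low array, and the mean of 1.49 ± 0.35 (2.82-fold, adjusted p = 0.00141) was the highest ratio among the enzymes. Sult1b1 was called lower at -0.53 ± 0.16, a call lost with marked spots kept, and the 4 other measured sulfotransferases lay between -0.09 and 0.39. Sult3a1 and Sult6b1 were not well above background on any array.

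In the Ugt1 family, Ugt1a6b had -1.21 and -1.58 in replicate 1 and -0.87 and -1.28 in replicate 2, a mean of -1.24 ± 0.23 (adjusted p = 0.00159). Ugt1a1, the bilirubin-conjugating enzyme, had -0.37 in replicate 1 (first array only) and -0.22 and -0.39 in replicate 2. Its mean of -0.34, with an interval from -0.64 to -0.03, missed the threshold (adjusted p = 0.0689). Genes of the Ugt1a locus share their last exons, and the kept Ugt1a6b probe (chromosome 1, 90115472 to 90115531) lies downstream of the Ugt1a1 probe (90108880 to 90108939), so it may read several genes of the locus; which ones was not tested.

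**Figure D2:**
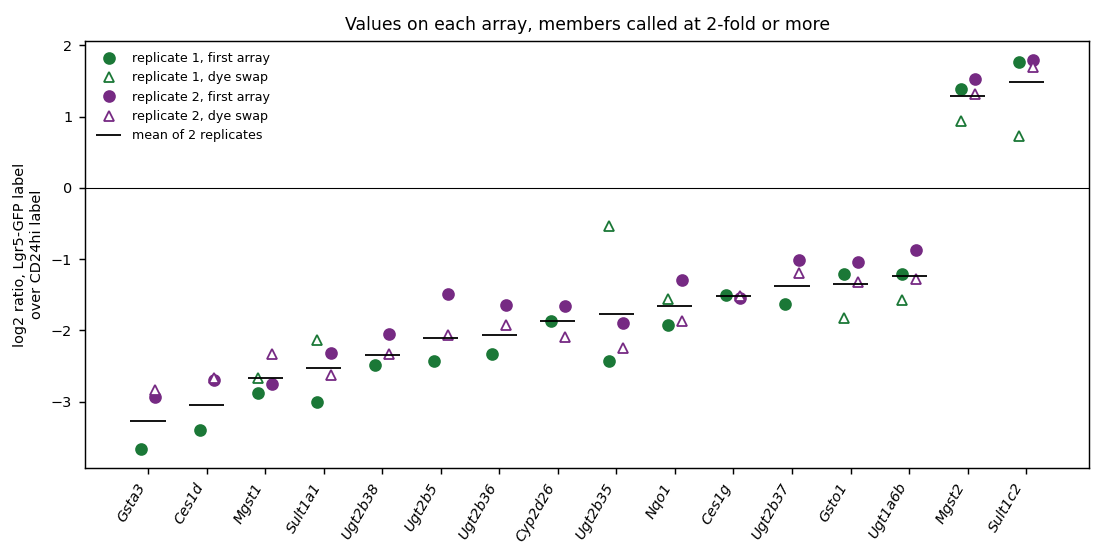
Log2 ratio (vertical axis) on each array of the 16 enzymes called with a difference of at least 2-fold; circles are first arrays, open triangles dye swaps, green replicate 1, purple replicate 2, and the black line is the mean of both replicates. All values lie on 1 side of 0 for each gene. The dye swap of replicate 1 is missing for Gsta3, Ces1d, Ces1g, Cyp2d26, Ugt2b5, Ugt2b36, Ugt2b37 and Ugt2b38. It is mildest for Ugt2b35 (-0.54), Sult1c2 (0.72), Mgst2 (0.93) and Sult1a1 (-2.14).

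Among the carboxylesterases named as such in the files, both measured Ces1 genes were lower and none of the 3 Ces2 genes was called. Ces1d (named Ces3 in the files) had -3.40 in replicate 1 (first array only) and -2.69 and -2.67 in replicate 2. It was low on every array with a value and its mean was -3.04 ± 0.51 (8.21-fold lower, adjusted p = 5.04e-04). Ces1g (Ces1 in the files; chromosome 8, 95826742 to 95826801), which hydrolyses lipid esters, had -1.50, -1.55 and -1.52 on the same arrays, a mean of -1.52 ± 0.02 (adjusted p = 6.98e-04). The Ces1d probe, shown since this is the largest phase 1 difference, spans 1286 bases of the genome and crosses a splice junction.
Ces1d (mm9, chr8:95693648-95694933, minus strand): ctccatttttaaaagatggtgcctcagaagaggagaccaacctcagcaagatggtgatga

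Ces2 enzymes hydrolyse ester prodrugs in the intestine. Ces2a had -0.44 in replicate 1 (first array only) and -0.13 and -0.32 in replicate 2 (mean -0.34, 95% interval from -0.66 to -0.01, adjusted p = 0.0811). Ces2c had 0.08 and -0.62 in replicate 1 and 0.01 and -0.02 in replicate 2 (mean -0.14, interval from -0.47 to 0.19). Ces2e had 0.12, -0.10 and 0.01 (mean 0.04, interval from -0.27 to 0.35). The intervals of the 3 genes lie above the means of both Ces1 genes. Some carboxylesterases carry an older name in the files and so fell outside the naming rule: by current symbol, Ces1c (-1.16 ± 0.23), Ces1e (-1.24 ± 0.45), Ces1b (-0.58 ± 0.02) and Ces2g (-0.74 ± 0.13) were called lower too, whereas Ces1f (0.35) and Ces2b (-0.05) were not called, so the calls did not divide by Ces1 and Ces2. The RNA labelled Lgr5-GFP was above background on 2 of 3 arrays for Ces1c and Ces2g and on 1 of 3 for Ces1b, which makes the size of those ratios uncertain. With them the phase 1 count of lower calls became 9, in place of 5.

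Nqo1 (chromosome 8, 109912440 to 109912499) had -1.92 and -1.56 in replicate 1 and -1.29 and -1.87 in replicate 2. All 4 arrays put it lower, at a mean of -1.66 ± 0.11 (3.16-fold, adjusted p = 6.36e-04). Its place in phase 1 is a choice made here. With Nqo1 counted in phase 2, lower calls were 4 in phase 1 and 16 in phase 2. Of the epoxide hydrolases, the microsomal Ephx1 had 0.89 in replicate 1 (first array only) and 0.54 and 0.14 in replicate 2, and was called higher at 0.61 ± 0.39 (adjusted p = 0.0283). The soluble Ephx2 had 0.58 and -0.12 in replicate 1 and 0.26 and 0.17 in replicate 2, a mean of 0.22 with an interval from -0.08 to 0.52. The call of Ephx1 was lost with no background subtraction, with marked spots kept, with median centring and without the first array of replicate 2.

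Of 65 cytochrome P450 genes, 35 were measured, of which 2 were called lower and 12 higher, and no higher value reached 2-fold. The shares were 5.71% lower and 34.3% higher, beside 25.7% and 22.0% of all genes. The 3 family 1 genes Cyp1a1, Cyp1a2 and Cyp1b1, which metabolise polycyclic aromatic compounds and respond to the Ah receptor, were not well above background on any array in either RNA. The Cyp2d genes lie side by side on chromosome 15, and all 6 measured ones were called, 5 higher and 1 lower. Cyp2d26 (82620575 to 82620634) had -1.87 in replicate 1 (first array only) and -1.66 and -2.09 in replicate 2, a mean of -1.87 ± 0.00 (3.65-fold lower, adjusted p = 5.20e-04). Its neighbours Cyp2d10 (0.78 ± 0.09), Cyp2d34 (0.74 ± 0.51), Cyp2d12 (0.43 ± 0.01), Cyp2d22 (0.40 ± 0.16) and Cyp2d9 (0.38 ± 0.09) were on the other side of 0. All 5 of these higher calls were lost with marked spots kept, and all but that of Cyp2d10 with median centring; Cyp2d9 (adjusted p = 0.0493) and Cyp2d22 (0.0496) passed the threshold narrowly, and Cyp2d22 was above background in the RNA labelled CD24hi on 2 of 3 arrays.

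The other P450 genes called higher were Cyp4f13 (0.79 ± 0.40) and Cyp4f16 (0.76 ± 0.22), of a family that hydroxylates fatty acids and leukotrienes, Cyp2c55 (0.66 ± 0.19), Cyp2r1 (0.60 ± 0.12), a vitamin D 25-hydroxylase, the arachidonate epoxygenase family members Cyp2j6 (0.57 ± 0.20) and Cyp2j13 (0.57 ± 0.03), and Cyp3a41a (0.50 ± 0.22). Cyp2c55 is also on the list of absorptive colonocyte markers, whose 12 measured members ranged from -0.49 to 3.05. Cyp4v3 was called lower at -0.68 ± 0.12, a call lost with marked spots kept, and in the RNA labelled Lgr5-GFP 1 of its 3 arrays was not above background. Cyp3a11 (-0.04, interval from -0.36 to 0.28) and Cyp3a13 (0.02, from -0.30 to 0.33), drug-metabolising P450s, were not called. In the 30 P450 genes without a measurement nothing can be said of a difference at this signal.

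**Figure D3:**
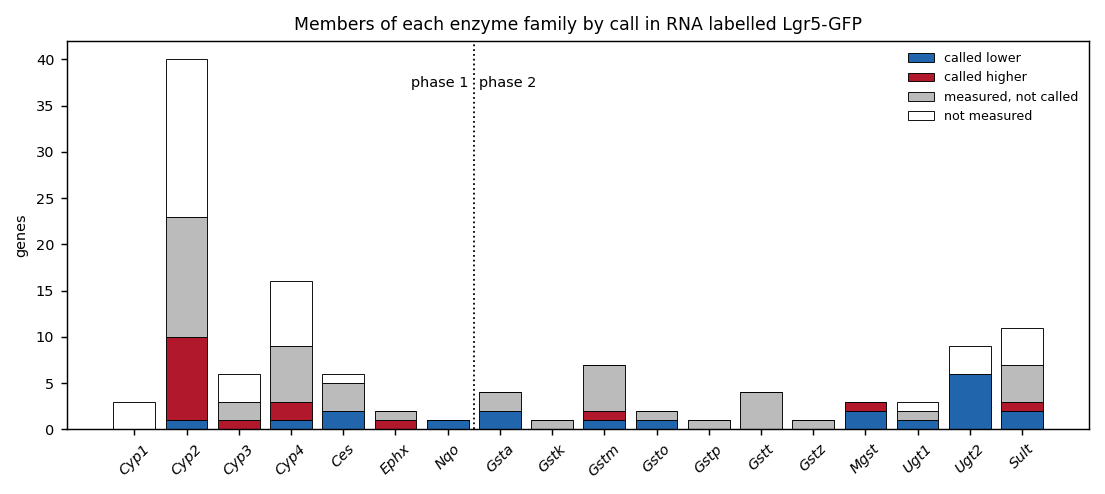
Number of genes (vertical axis) in each enzyme family (horizontal axis, phase 1 left of the dotted line), split into called lower (blue), called higher (red), measured but not called (grey) and not measured (white). All 6 measured Ugt2 genes are called lower, 9 of 23 measured Cyp2 genes are called higher, and none of the 3 Cyp1 genes was measured.

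The small phase 1 increases depended on the treatment of the signal, and the large decreases did not, except for the fit on all spots given below. With marked spots kept, 0 phase 1 enzymes were called higher by limma, and with arrays centred on their medians in place of loess 4 were, namely Cyp2c55, Cyp2d10, Cyp4f16 and Cyp4f13. Phase 2 calls of lower were 13 and 17 under those settings. Median centring moved the median of all genes by -0.18 and split all calls into 2197 higher and 5310 lower, in place of 3222 and 3764. Relative to all genes, the phase medians then lay at 0.11 (phase 1) and -0.02 (phase 2), in place of 0.10 and -0.04. Leaving out the first array of replicate 1, which leaves that replicate to its poor dye swap, gave 8 called enzymes among 31 measured, and leaving out that dye swap gave 47 of 81. With all spots entering the background fit, limma called 0 genes (5499 genes and 27 enzymes had an unadjusted p under 0.05, and the smallest adjusted p was 0.0583). Under each alternative that gave a test, other than that fit, the 16 enzymes called at 2-fold or more were called again wherever they had a value.

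**Figure D4:**
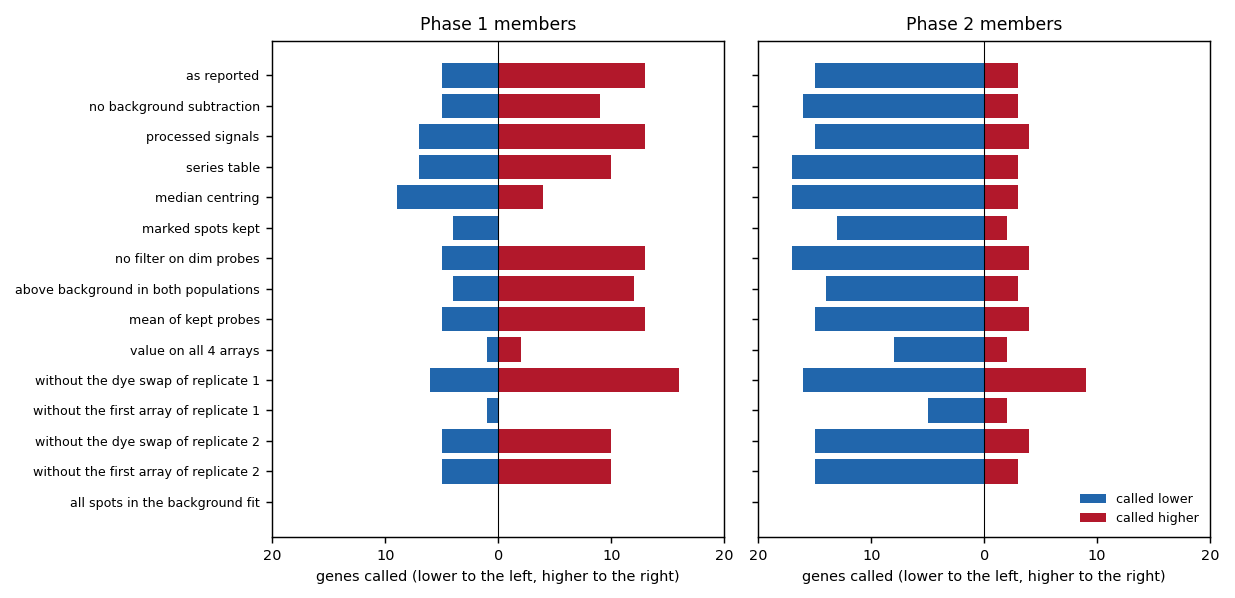
Number of enzymes called lower (blue, to the left) and higher (red, to the right) in phase 1 and phase 2 under each processing setting (vertical axis). Phase 2 counts of lower stand at 13 or more except with a value required on all 4 arrays (8), without the first array of replicate 1 (5) and with all spots in the background fit (0), while phase 1 counts of higher run from 0 to 16.

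Genes that regulate and supply these enzymes were read from lists chosen by name, with earlier results of these data known. Of 67 genes, 55 were measured, and 25 were called lower and 9 higher, 45.5% and 16.4% beside the 25.7% and 22.0% of all genes given above. Of 10 measured regulators 4 were lower and 1 higher. Nfe2l2, the transcription factor (NRF2) that drives many glutathione and quinone genes, had -1.27 and -1.40 in replicate 1 and -0.83 and -1.16 in replicate 2, a mean of -1.16 ± 0.24 (adjusted p = 0.00195). Nr1i2, the pregnane X receptor, was -1.25 ± 0.30, Ahr, the Ah receptor, -0.61 ± 0.08, and Maff, a small Maf partner of NRF2, -1.94 ± 0.24. Bach1, which represses NRF2 targets, was higher at 0.49 ± 0.25, and Keap1, which targets NRF2 for degradation, was not called at 0.45 (adjusted p = 0.0706). The calls of Ahr and Bach1 were lost with marked spots kept.

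Of 5 oxidant-response genes 3 were lower, Nqo2 (-1.20 ± 0.44), Txnrd1 (-1.12 ± 0.30) and Osgin1 (-0.48 ± 0.10), while Hmox1, the haem-degrading enzyme, was higher at 0.89 ± 0.24. For glutathione supply, the reductase Gsr (-1.15 ± 0.34), the synthase Gss (-0.65 ± 0.46) and both subunits of glutamate-cysteine ligase, Gclm (-0.49 ± 0.24) and Gclc (-0.41 ± 0.00), were lower. Chac1, which degrades glutathione, was higher at 2.23 ± 0.50 (adjusted p = 7.94e-04), with an uncertain size: the RNA labelled CD24hi was above background on 2 of 3 arrays, and the ratio ran from 1.61 to 3.83 over the alternatives. The other 4 measured genes of that list were not called. The calls of Gss, Gclm, Gclc and Osgin1 were lost with marked spots kept.

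Cofactor and electron supply were divided. Ugp2, which makes UDP-glucose, was higher at 1.0 ± 0.06, and Ugdh, which turns it into the UDP-glucuronic acid that the Ugt enzymes use, was lower at -0.65 ± 0.08. Papss1, which makes the sulfate donor, was higher (0.59 ± 0.17), and Bpnt1, which clears its by-product, was lower (-0.50 ± 0.02). Por, the reductase that passes electrons to microsomal P450s, was higher at 0.88 ± 0.22 (1.84-fold, adjusted p = 0.00430), and so was Cyb5r3 (1.05 ± 0.60). Cyb5r1 (-1.47 ± 0.05) and Cyb5a (-0.39 ± 0.05) were lower. The calls of Ugp2, Papss1 and Cyb5r3 were lost with marked spots kept, and those of Ugdh and Por without the first array of replicate 1. Bpnt1 and Cyb5a each lost theirs under several alternatives, the series table among them.

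Of the export pumps that carry conjugates out of cells, Abcc3 (-0.84 ± 0.15), Abcg2 (-0.82 ± 0.12) and Abcc4 (-0.59 ± 0.10) were lower, Abcc5 (0.65 ± 0.11) was higher, and 3 were not called. With marked spots kept, of these pumps Abcc3 alone kept its call. Other oxidising, reducing and methylating enzymes were lower in 7 of 13 measured cases and higher in 1. The aldo-keto reductase Akr1b8 (-2.25 ± 0.25), the monoamine oxidases Maob (-1.75 ± 0.06) and Maoa (-1.23 ± 0.15) and the carbonyl reductase Cbr3 (-1.73 ± 0.19) passed 2-fold. Cbr1, Fmo1 and Tpmt were lower by less, at -0.72 to -0.51, and Xdh was higher at 0.48 ± 0.05. Each of these smaller calls was lost under at least 1 alternative, and the Fmo1 signal of the RNA labelled Lgr5-GFP passed background on 1 of 4 arrays.

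**Figure D5:**
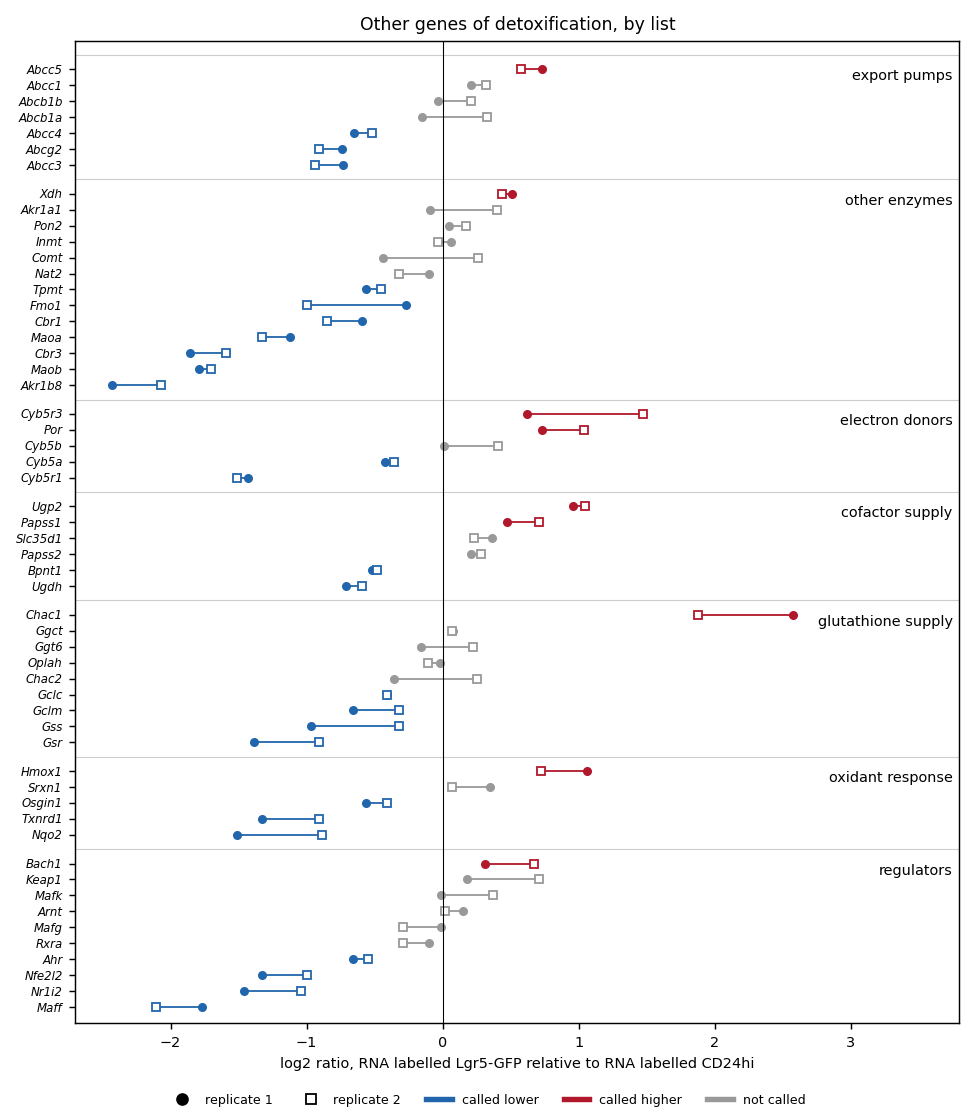
Log2 ratio (horizontal axis) of the measured genes in each list of regulators, suppliers, pumps and other enzymes; filled circles are replicate 1, open squares replicate 2, with blue called lower, red called higher and grey not called. Chac1 (2.23) and Akr1b8 (-2.25) are the extremes, and 25 of 55 genes are called lower.

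The letters of 2 further motifs were counted in the 300-base RefSeq promoters, which were found for 68 of the 81 measured enzymes. TGACNNNGC, the core of the antioxidant response element that NRF2 binds, was in 10.8% of the enzymes' 83 promoters and in 12.4% of all 32851 promoters, on either strand. GCGTG, the core read by the Ah receptor with Arnt, was in 21.7% and 32.4%. Gsta3 and Mgst1, among the enzymes with the largest decreases, each hold TGACNNNGC, at positions -121 and -56. The Gsta3 promoter is shown from 200 bases before its start up to the start, with the match in capitals. Matches were no more frequent among the enzymes called lower (2 of 19 promoters) than over all promoters, and a match is no evidence of binding.
Gsta3 (GRCm38.p6, chr1:21240385-21240584, plus strand): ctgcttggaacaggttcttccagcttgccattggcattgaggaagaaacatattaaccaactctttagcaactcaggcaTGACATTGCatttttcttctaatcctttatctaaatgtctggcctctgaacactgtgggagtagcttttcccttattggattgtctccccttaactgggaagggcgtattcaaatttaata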

How the data were processed

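4 2-colour arrays were read. The deposited intensity values are the mean spot brightness and median local background per dye, from Feature Extraction 10.5.1.1 per the file headers, which also background-subtracted and dye-normalized a second set of signals. The deposited log10 ratio is red over green of that second set. The deposited series table holds a log2 ratio of red over green, with its normalization not given in the sources used here.

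Here, spots with an uneven local background were left out, normexp (offset 50, limma 3.58.1, R 4.3.3) and global loess were applied, marked spots were dropped, and signs were turned to RNA labelled Lgr5-GFP relative to RNA labelled CD24hi. An array and its swap were averaged into 1 replicate, and lmFit and eBayes tested 2 replicates against 0 (1 residual degree of freedom, 4.71 prior, Benjamini-Hochberg). A probe was kept if well above background on every array with a value in either RNA, and a gene took its brightest kept probe. Names came from RefSeq for 27041 of 43379 gene spots, and 148 of 166 probes of these enzymes matched; 7 enzymes have another current symbol. Of the 120 enzymes 39 were not measured, 18 of them not above background on any array. The fit was tested on simulated data. Per-array values are named for the 14 largest called ratios, for Mgst2 and Ugt1a6b, for enzymes of special role and for the regulator Nfe2l2. The enzymes and lists were chosen with earlier results of these data known. The number of arrays limits the precision, and a slide holds 1 replicate, which makes these inseparable.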

Additional observations from a re-analysis of the deposited data

Results flagged for a closer look

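Among 29 enzymes with a value on all 4 arrays, 3 had 1 array far from the other 3 by Dixon's test, each on the dye swap of replicate 1, on which most spots were left out. Ces2c was -0.62 there, Gsta4 was 0.20 and Sult1c2 was 0.72. The other arrays lay between -0.02 and 0.08 for Ces2c, between -1.10 and -0.95 for Gsta4 and between 1.70 and 1.79 for Sult1c2. Chance flags about 1 in 20 such groups, and arrays of a replicate share their RNA.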

How the results depend on the processing

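Counts of calls depended on the treatment of marked and uneven spots. With all spots in the background fit, limma called 0 genes and 0 enzymes in either phase and direction (5499 genes at an unadjusted p under 0.05). Marked spots kept gave 3643 genes, 19 enzymes, 0 phase 1 enzymes higher and a phase 2 median of -0.16. Requiring a value on all 4 arrays gave 2737 genes and 13 enzymes among fewer tested (phase 1: 2 higher, 1 lower, median 0.22; phase 2: 8 lower). Median centring gave 4 phase 1 enzymes higher and 9 lower, with medians of -0.13 and -0.27; the series table gave -0.01 and -0.21. The phase 2 median was -0.20 with processed signals and -0.05 with no filter, and the phase 1 median was 0.21 for genes above background in both RNAs. Adding genes by current symbol, an alternative chosen after seeing the data, gave 9 lower in phase 1. Leaving out each array or replicate gave 983 to 8433 genes and 8 to 47 enzymes called, 1 to 6 phase 1 lower, 0 to 16 phase 1 higher, 5 to 16 phase 2 lower and 2 to 9 phase 2 higher, with medians of -0.01 to 0.12 and -0.23 to -0.09. The low counts came without the first array of replicate 1 and the high ones without its dye swap. No called enzyme reversed its direction in any setting where it had a value. Only 16 of the 36 called had one without the first array of replicate 1, and 15 with a value required on all 4 arrays. Of the 45 uncalled enzymes, 13 changed sign with median centring, 12 without replicate 1 and 0 to 6 in the other settings. Of the uncalled enzymes named above, Ephx2, Gstp1, Gstm1, Ugt1a1, Ces2a, Ces2c and Ces2e were followed gene by gene through the settings. In settings with a test, Gstp1 changed sign, to -0.06 with no background subtraction and -0.17 with marked spots kept. It was -0.19 with median centring and -0.04 in the series table. Ces2e changed sign too (-0.03 with marked spots kept, -0.26 with median centring). Ces2c did so without the dye swap of replicate 1 (0.04), and was -0.31 without the first array of that replicate. Other named ones, Gsta1 and Cyp3a13 among them, were not followed, and a change of sign in them is not excluded. The cause of these changes was not tested.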
